A study of Mus musculus with 8 samples.

Results

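MHC class I molecules show peptides from inside a cell on its surface, where CD8 T cells and natural killer cells read them. Proteins are cut by the proteasome, whose catalytic subunits are exchanged for immunoproteasome subunits after interferon. Peptides are carried into the endoplasmic reticulum by the Tap1-Tap2 transporter and loaded, with the help of tapasin, onto a heavy chain bound to beta-2 microglobulin. In healthy brain the pathway is low in most neurons and higher in microglia and endothelial cells. The 10 genes described here were taken by symbol from the deposited count table of 24060 rows, and all 10 passed the filter on low counts that left 15186 genes. They are the heavy chains H2-K1, H2-D1 and H2-T23, the light chain B2m, the transport and loading genes Tap1, Tap2 and Tapbp, the immunoproteasome subunits Psmb8 and Psmb9, and the class I transactivator Nlrc5.

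RNA was sequenced from whole cerebellum of 4 bigenic mice, which carried CalExflox and Aldh1l1-Cre/ERT2, and 4 control mice, which carried CalExflox without the Cre allele. CalExflox is a conditional allele of a plasma membrane calcium pump, and Aldh1l1-Cre/ERT2 is a tamoxifen-dependent recombinase under control of an astrocyte gene. All 8 mice received 1 intraperitoneal dose of tamoxifen in corn oil at 75 mg/kg, and tissue was taken 5 days later. Age and sex are not given in the labels, and since only bigenic mice carry Cre, the effects of the pump and of Cre cannot be told apart. The comparison asks what differs in cerebellar RNA after induction of the pump in astrocytes.

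Counted reads per library ranged from 35208460 to 38293012. The cerebellar neuron list (12 genes, among them Gabra6 and Pcp2) summed to 10864 to 12796 CPM (counts scaled to library size with TMM factors) in every library, so markers of the labelled tissue were present throughout. Choroid plexus markers (14 genes, among them Ttr and Kl) summed to 2588 and 3236 CPM in control mice 2 and 3 and to 367 CPM in control mouse 1, against 48.4 CPM in control mouse 4 and 50.1 to 58.0 CPM in the bigenic mice. Results that rest on the controls are therefore also given without control mice 2 and 3. That fit keeps control mouse 1, so it does not remove the choroid plexus difference. In it the choroid plexus markers Kl and Prlr were still lower in bigenic tissue past the threshold given next, while Calml4 did not pass. The threshold for a change was an adjusted p under 0.05 in edgeR's quasi-likelihood test, with Benjamini-Hochberg adjustment over all genes tested. Every adjusted p below for a single gene comes from that test. By this rule 44.3% of all genes tested were called, with 22.9% of all genes tested lower in bigenic tissue and 21.4% higher. With library size alone in place of TMM the split was 28.8% lower and 15.96% higher, and with limma it was 26.4% and 14.8% on log2(FPKM + 1) and 26.6% and 14.9% on log2(FPKM + 0.1).

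The promoters of the members are shown first, because class I genes share a control module. In this module RFX factors bind the X box, CREB and ATF factors bind the adjoining CRE-like site, NF-Y binds an inverted CCAAT box, and Nlrc5 joins them without binding DNA itself. RefSeq (GRCm38.p6) gave promoter windows, from 250 bases before to 50 after the start, for 8 of the 10 members. Tap2 and Nlrc5 were not matched. The stretches of H2-K1 (chr17:34000349-34000468, minus strand) and H2-D1 (chr17:35262913-35263032, plus strand) are printed because these heavy chain genes moved in opposite directions. Capitals mark, in order, the kappa B core GGGATTCCC, the interferon response core TTTCACTT, the CRE-like core TGACG and the inverted CCAAT box ATTGG.
H2-K1: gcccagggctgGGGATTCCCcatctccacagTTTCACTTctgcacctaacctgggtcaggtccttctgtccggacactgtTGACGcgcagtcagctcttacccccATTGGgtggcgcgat
H2-D1: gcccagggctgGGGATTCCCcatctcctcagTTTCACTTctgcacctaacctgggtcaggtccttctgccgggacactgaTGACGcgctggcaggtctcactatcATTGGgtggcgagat
From the kappa B core to the CCAAT box, the H2-K1 and H2-D1 stretches were identical at 88 of 99 bases without a gap. All 4 elements stood at the same spacing in both.

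The light chain gene B2m carries the pair of TGACG and ATTGG at the same distance, 20 bases apart, although it lies on another chromosome (chr2:122147545-122147644, plus strand). Its stretch is printed to show that spacing, with the interferon-stimulated response element GAAANNGAA also in capitals.
B2m: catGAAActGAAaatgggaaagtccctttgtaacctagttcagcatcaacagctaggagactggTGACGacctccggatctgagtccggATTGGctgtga
Both strands of all 32851 RefSeq promoter windows were searched. TGACG, any 20 bases and ATTGG occurred in 0.0944% of them, GGGATTCCC in 0.353%, TTTCACTT in 1.6% and GAAANNGAA in 8.56%. Among the members with a window, this spaced pair was found in H2-K1, H2-D1 and B2m. It was not found in H2-T23, Tap1, Tapbp, Psmb8 or Psmb9. A TTTCACTT match can share bases with a GAAANNGAA match on the other strand. H2-T23 held GAAANNGAA on the opposite strand, 123 bases before its start. Psmb8 held the gamma-activated site TTCNNNGAA, found in 8.3% of windows, 97 bases before its start. These matches describe the letters only.

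Tap1 and Psmb9 are transcribed away from each other out of a single segment, and the 225 bases between their RefSeq starts are printed because the pair shares them (chr17:34187331-34187555, written on the Tap1 strand). Capitals mark a CCAAT box (CCAAT on this strand, ATTGG on that of Psmb9) and TGACG, which occur in 37.4% and 20.8% of all windows.
Tap1 and Psmb9: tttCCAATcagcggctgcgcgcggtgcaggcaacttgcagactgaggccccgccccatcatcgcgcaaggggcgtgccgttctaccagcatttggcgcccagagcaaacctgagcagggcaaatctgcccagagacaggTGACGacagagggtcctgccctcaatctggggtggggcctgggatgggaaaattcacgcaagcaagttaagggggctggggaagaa
The TGACG starts 86 bases before the Tap1 start, and on the Psmb9 strand its match starts 144 bases before the Psmb9 start.

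The class I genes did not move as a block. Of the 10 members, 5 were lower in bigenic cerebellum (H2-K1, Tap1, Psmb8, Psmb9 and Nlrc5), 2 were higher (H2-D1 and Tapbp) and 3 did not pass the threshold (H2-T23, B2m and Tap2). The background shares are 22.9% lower and 21.4% higher, so the 2 higher members are near the background share. The members' median log2 fold change was -0.26, and over all genes tested it was -0.0041. For 6 members the 4 bigenic and 4 control values did not overlap, 4 lower (Tap1, Psmb8, Psmb9, Nlrc5) and 2 higher (H2-D1, Tapbp), where 21.4% and 19.4% of all genes tested did so in each direction. Without control mice 2 and 3 the lower members were 2 (Psmb8 and Psmb9) and the higher member was 1 (H2-D1). In that fit 11.4% of all genes tested were lower and 10.4% higher, so the higher count is near its share. The lower members numbered 2 without bigenic mouse 2 or without control mouse 2, and 3 without bigenic mouse 1 or without control mouse 1. In whole tissue, fewer cells of a type and less RNA per cell cannot be told apart.

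**Figure D1:**
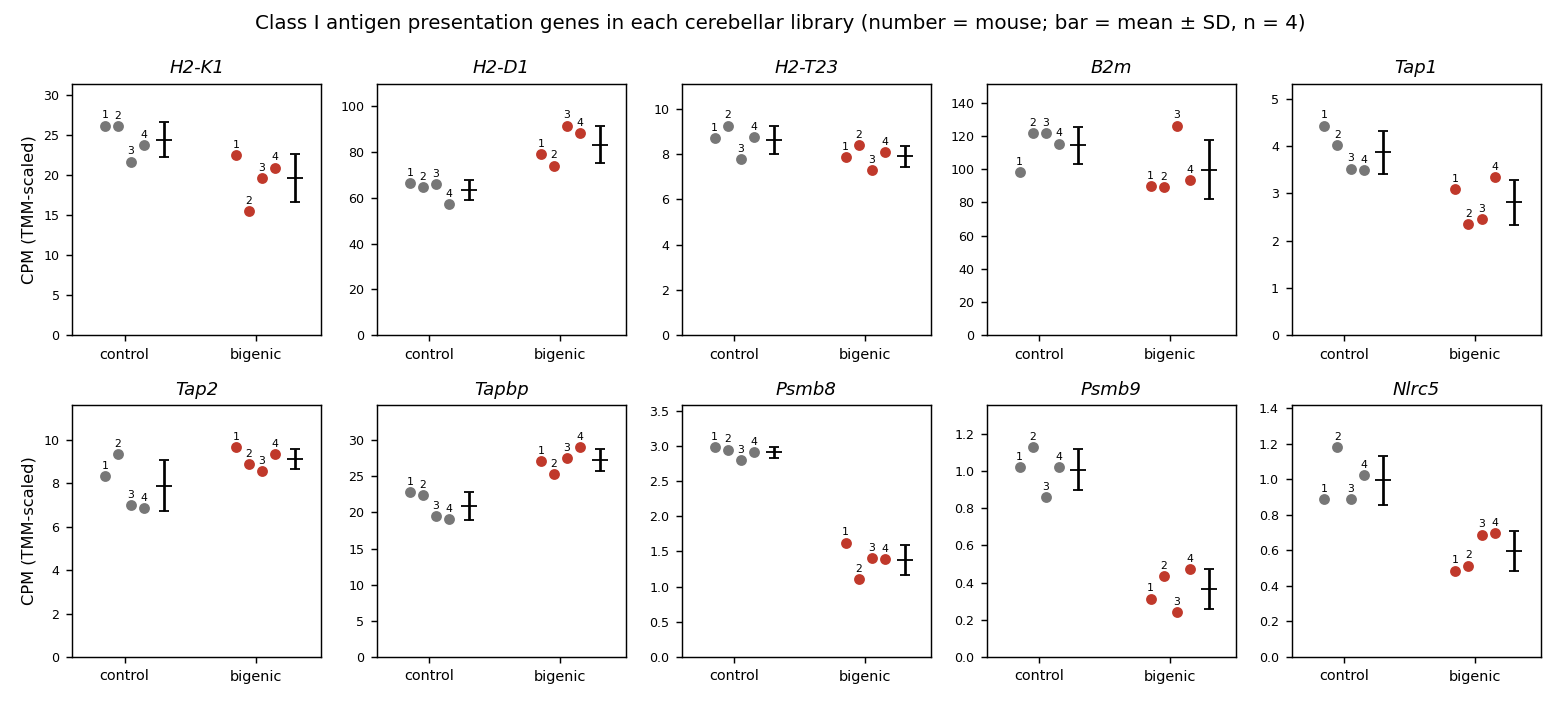
CPM (TMM-scaled, linear axis from 0) of each of the 10 members in the 4 control (grey) and 4 bigenic (red) libraries; numbers are mice, and the bar is the mean ± SD. Psmb8, at 1.11 to 1.63 CPM in bigenic and 2.80 to 2.98 CPM in control libraries, and Psmb9 separate most clearly, while H2-D1 and Tapbp lie higher in bigenic tissue.

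Among the members the immunoproteasome subunits Psmb8 and Psmb9 fell most. Of the 7 genes of the immunoproteasome list these 2 were lower, near the background share of 22.9%. The other 5, Psmb10 among them, did not pass. Psmb8, which encodes the chymotrypsin-like subunit that takes the place of Psmb5 (chromosome 17, 34197721 to 34201454, plus strand), was at 1.63, 1.11, 1.41 and 1.39 CPM in bigenic mice 1 to 4 and at 2.98, 2.95, 2.80 and 2.91 CPM in control mice 1 to 4. Every bigenic value was below every control value, and the 4 controls lay close together. The fall was 2.1-fold (log2 fold change -1.07 ± 0.17, SE; adjusted p = 0.00054). Psmb8 exons overlap Gm20496 on the other strand, and without strand in the counting the reads of both could be mixed.

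Psmb9, which encodes the subunit that takes the place of Psmb6 (chromosome 17, 34181987 to 34187764, minus strand), had 0.314, 0.433, 0.239 and 0.473 CPM in bigenic mice 1 to 4 and at 1.02, 1.13, 0.859 and 1.02 CPM in control mice 1 to 4. These groups were far apart, although the bigenic values rest on only 11, 16, 8 and 17 reads and the control values on 38, 44, 31 and 41. The fall was 2.74-fold (log2 fold change -1.45 ± 0.27, SE; adjusted p = 0.0013). On log2(FPKM + 1), where low genes are compressed, the log2 fold change of Psmb9 was -0.67 and still passed (limma adjusted p = 0.00032). Psmb9 exons overlap exons of Tap1 on the other strand.

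Nlrc5, the transactivator of class I promoters (chromosome 8, 94434356 to 94527272, plus strand), was lower at 0.485, 0.514, 0.688 and 0.695 CPM in bigenic mice 1 to 4 against 0.886, 1.18, 0.887 and 1.02 CPM in control mice 1 to 4. The groups did not overlap, on 17 to 25 reads in bigenic and 32 to 46 in control libraries. The log2 fold change was -0.74 ± 0.24 (SE; adjusted p = 0.025). The Nlrc5 call was lost without control mice 2 and 3 (adjusted p = 0.15) and on log2(FPKM + 0.1) (limma, difference -0.43, adjusted p = 0.11). It was also lost without bigenic mouse 1 (adjusted p = 0.069), bigenic mouse 2 (0.0505) or control mouse 2 (0.084), and on log2(FPKM + 1), where the difference was -0.08.

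The classical heavy chains went opposite ways. H2-D1 (chromosome 17, 35262730 to 35267499, plus strand), the more abundant of the pair, was at 79.2, 74.0, 91.5 and 88.3 CPM in bigenic mice 1 to 4 and at 66.3, 64.5, 66.0 and 57.1 CPM in control mice 1 to 4. All 4 bigenic values lay above all 4 control values. The rise was 1.31-fold (log2 fold change 0.39 ± 0.09, SE; adjusted p = 0.0037). The call held in each of the 16 alternative fits (adjusted p from 0.00026 to 0.036).

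H2-K1 (chromosome 17, 33996017 to 34000347, minus strand) had 22.5, 15.5, 19.7 and 20.9 CPM in bigenic mice 1 to 4 and at 26.2, 26.2, 21.7 and 23.8 CPM in control mice 1 to 4. Its groups overlapped, since bigenic mouse 1 lay above control mouse 3. The H2-K1 log2 fold change of -0.32 ± 0.12 (SE) passed narrowly (adjusted p = 0.049). Without control mice 2 and 3 its size was -0.35, but the call was lost (adjusted p = 0.13). The H2-K1 call was also lost without bigenic mouse 2, 3 or 4 (adjusted p = 0.081, 0.068 and 0.067) and without control mouse 1, 2 or 4 (adjusted p = 0.11, 0.13 and 0.073). Without bigenic mouse 2 the H2-K1 log2 fold change was -0.22.

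Within each library, the H2-K1 to H2-D1 ratio of FPKM (reads scaled to gene length and library size, so that levels of different genes can be compared) was 0.299, 0.221, 0.227 and 0.25 in bigenic mice 1 to 4 and 0.417, 0.428, 0.346 and 0.439 in control mice 1 to 4. Since this ratio was picked with its values in view, it has no test. Its highest bigenic value lay below its lowest control value. Of all stretches of 75 bases, the read length in the series design, 3.1% of those in H2-K1 transcripts and 5.56% of those in H2-D1 transcripts also occur in another gene. Reads from there could be lost or assigned to either.

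H2-T23, which encodes the non-classical molecule Qa-1 that presents leader peptides of other class I chains to natural killer receptors (chromosome 17, 36029773 to 36032855, minus strand), did not pass. It was at 7.84, 8.39, 7.30 and 8.07 CPM in bigenic mice 1 to 4 and at 8.70, 9.26, 7.76 and 8.74 CPM in control mice 1 to 4, with overlapping groups. The log2 fold change was -0.13 ± 0.11 (SE; adjusted p = 0.37). B2m, the light chain shared by all class I molecules (chromosome 2, 122147686 to 122153083, plus strand), was at 89.7, 89.5, 126 and 93.7 CPM in bigenic mice 1 to 4 and at 98.5, 122, 122 and 116 CPM in control mice 1 to 4. Bigenic mouse 3 alone lay above every control, and the other 3 bigenic mice lay below every control. The B2m log2 fold change was -0.20 ± 0.12 (SE; adjusted p = 0.19), and without bigenic mouse 3 it was -0.34 (adjusted p = 0.0071).

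The transporter subunits also differed from each other. Tap1 (chromosome 17, 34187553 to 34197225, plus strand) was at 3.08, 2.35, 2.45 and 3.34 CPM in bigenic mice 1 to 4 and at 4.43, 4.03, 3.52 and 3.49 CPM in control mice 1 to 4. The groups did not overlap but came close, between bigenic mouse 4 and control mouse 4. The log2 fold change was -0.46 ± 0.17 (SE; adjusted p = 0.041). Tap1 was no longer called without control mice 2 and 3 (adjusted p = 0.14), with no filter on low counts (0.053), or without any single library other than bigenic mouse 4 and control mouse 4 (0.053 to 0.10); on log2(FPKM + 1) the difference was -0.29. Tap2 (chromosome 17, 34203527 to 34216321, plus strand) was at 9.67, 8.90, 8.59 and 9.35 CPM in bigenic mice 1 to 4 and at 8.35, 9.36, 7.01 and 6.87 CPM in control mice 1 to 4. Control mouse 2 lay within the bigenic range, and the Tap2 log2 fold change of 0.21 ± 0.13 (SE) did not pass (adjusted p = 0.20). Tap2 exons overlap Gm15821 and Gm20496 on the opposite strand.

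Tapbp, which encodes tapasin, the bridge between transporter and heavy chain (chromosome 17, 33915899 to 33929292, plus strand), was higher. It was at 27.1, 25.3, 27.6 and 29.0 CPM in bigenic mice 1 to 4 and at 22.8, 22.4, 19.5 and 19.0 CPM in control mice 1 to 4. All bigenic values lay above all control values, a 1.3-fold rise (log2 fold change 0.38 ± 0.09, SE; adjusted p = 0.0059). Without control mice 2 and 3 the size was 0.38 but the Tapbp call was lost (adjusted p = 0.060). Tapbp shares exonic sequence with Zbtb22 on its own strand and with Gm19412 on the other, and 18.6% of its stretches of 75 bases occur in another annotated gene.

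**Figure D2:**
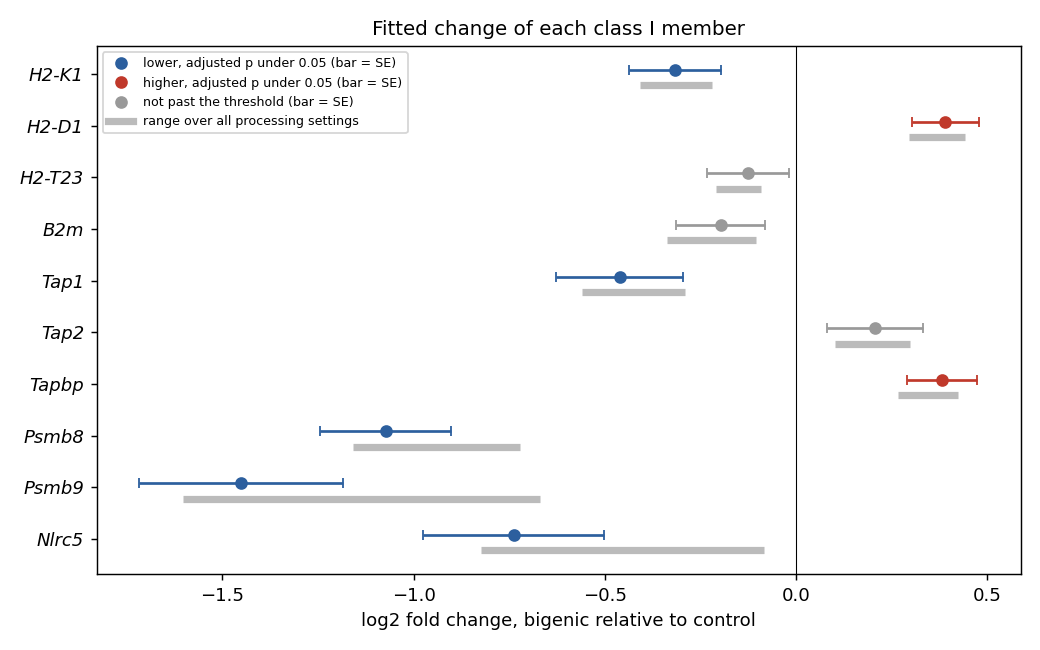
Log2 fold change of each member, bigenic relative to control (points; bars are the SE of the fit; blue and red passed an adjusted p under 0.05, grey did not), and the range over the main fit and 16 alternatives (grey bars). Psmb8, Psmb9 and H2-D1 keep their call in every alternative, and the bar of Nlrc5 reaches -0.08 on log2(FPKM + 1).

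On the FPKM scale the members spanned a wide range of levels. In controls the means were 137 for B2m, 37.6 for H2-D1, 15.3 for H2-K1, 7.83 for Tapbp, 6.74 for H2-T23, 3.27 for Tap2, 2.45 for Psmb8, 1.35 for Tap1, 1.29 for Psmb9 and 0.147 for Nlrc5. The ranges of Tapbp and H2-T23 overlapped across control mice, but within each control mouse Tapbp was the higher. Tap1 and Psmb9 changed order between control mice, so their order is not fixed. In bigenic tissue the means fell in the same order, from 113 for B2m to 0.0832 for Nlrc5. There the ranges of H2-K1 (11.6 ± 1.85, SD, n = 4) and Tapbp (9.62 ± 0.587) overlapped, as did Psmb8 (1.10 ± 0.175) and Tap1 (0.925 ± 0.17). Within each bigenic mouse H2-K1 was above Tapbp and Psmb8 above Tap1. B2m made up 64.3% of the summed FPKM of the 10 members in controls and 58.4% in bigenic mice, and H2-D1 made up 17.7% and 24.2%.

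Ratios of FPKM within a library do not depend on how libraries are scaled, and 6 were compared between groups with a two-sided exact permutation test over samples. The smallest p that 4 against 4 allows is 0.0286, and Benjamini-Hochberg adjustment was over the 6 ratios. The ratio of Psmb8 to Psmb5, the immunoproteasome subunit over the constitutive one it replaces, was 0.0245 ± 0.00259 in bigenic and 0.0503 ± 0.00178 in control mice (SD, n = 4; exact p = 0.0286, adjusted p = 0.0571). All 4 bigenic values (0.0213 to 0.0273) lay below all control values (0.0485 to 0.0525). Psmb9 to Psmb6 was 0.00263 ± 0.000949 in bigenic and 0.00819 ± 0.00108 in control mice (SD, n = 4; exact p = 0.0286, adjusted p = 0.0571), again without overlap. None of the adjusted values passed 0.05, which in this family needed at least 4 ratios at the smallest p.

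The remaining catalytic pair was Psmb10 to Psmb7, at 0.081 ± 0.00783 in bigenic and 0.0973 ± 0.0153 in control mice (SD, n = 4; exact p = 0.114, adjusted p = 0.114), and its groups overlapped. Psmb10 itself averaged 18.7 ± 3.30 CPM in bigenic mice against 18.6 ± 2.09 CPM in controls (SD, n = 4; edgeR adjusted p = 0.97), a difference whose sign changed with the settings. The constitutive subunits Psmb5, Psmb6 and Psmb7 had log2 fold changes of -0.04 ± 0.08, 0.21 ± 0.09 and 0.26 ± 0.10 (SE), and none of the 3 passed (adjusted p = 0.67, 0.076 and 0.060). In every library the FPKM of Psmb8, Psmb9 and Psmb10 came to at most 0.114 of that of their constitutive counterparts.

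Tap1 to Tap2 was 0.259 ± 0.0342 in bigenic and 0.416 ± 0.0366 in control mice (SD, n = 4; exact p = 0.0286, adjusted p = 0.0571), with every bigenic value (0.223 to 0.301) below every control value (0.363 to 0.448). The classical heavy chains H2-K1 plus H2-D1 relative to B2m came to 0.522 ± 0.0659 in bigenic and 0.389 ± 0.0554 in control mice (SD, n = 4; exact p = 0.0571, adjusted p = 0.0857). Those groups overlapped, since bigenic mouse 3 lay at 0.439 and control mouse 1 at 0.471. H2-T23 relative to the same heavy chains was 0.101 ± 0.0154 in bigenic and 0.128 ± 0.0111 in control mice (SD, n = 4; exact p = 0.0857, adjusted p = 0.103), with overlap.

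**Figure D3:**
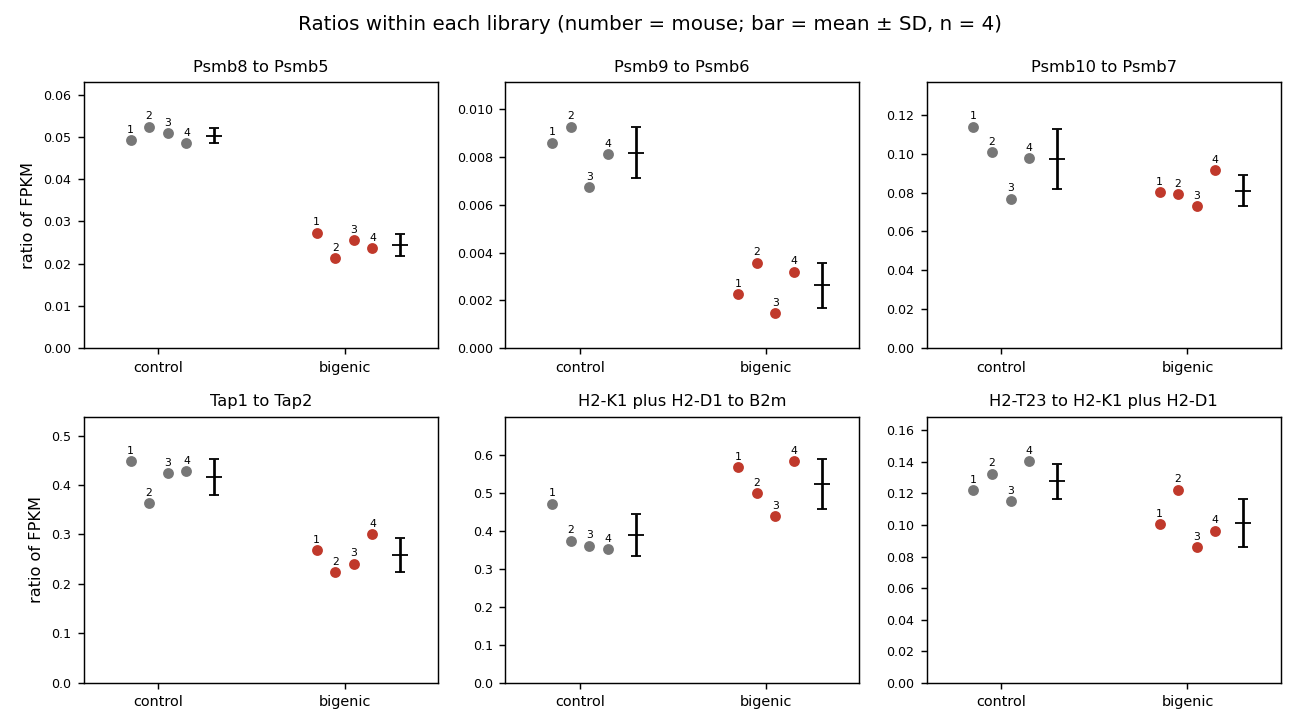
Ratios of FPKM within each library for the 6 tested pairs (linear axes from 0; grey control, red bigenic; numbers are mice, bar is the mean ± SD). Psmb8 to Psmb5, Psmb9 to Psmb6 and Tap1 to Tap2 are lower in every bigenic mouse than in any control.

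Other genes of the pathway were counted by role, with the 10 members included in their lists. Among heavy chains and class I-like genes 14 of 25 passed the filter, of which 3 were lower and 2 higher, no more than the background shares of 22.9% and 21.4%. The change of largest size was in H2-T24, a class I gene of the T region, at 0.2, 0.541, 0.18 and 0.195 CPM in bigenic mice 1 to 4 and 1.93, 1.82, 1.83 and 2.52 CPM in control mice 1 to 4. Every bigenic value was far below every control value, a 7.13-fold difference (log2 fold change -2.83 ± 0.33, SE; adjusted p = 9.2e-05) on 6 to 20 reads in bigenic and 66 to 101 in control libraries. Its call held in all 16 alternative fits, although on log2(FPKM + 1), which compresses low genes, the log2 fold change of H2-T24 was -0.80, and 0.459% of its stretches of 75 bases occur in another gene. Fcgrt, the neonatal Fc receptor chain that also pairs with B2m, fell by 0.33 ± 0.09 (SE) on the log2 scale (adjusted p = 0.016; 0.088 without control mice 2 and 3).

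H2-K2, which the annotation lists as a transcribed pseudogene beside H2-K1, was named after its values were seen. It was at 12.4, 8.85, 10.1 and 9.51 CPM in bigenic mice 1 to 4 and 7.09, 4.20, 3.91 and 4.71 CPM in control mice 1 to 4, without overlap. The log2 fold change was 1.04 ± 0.19 (SE; adjusted p = 0.0012), opposite in sign to that of H2-K1. H2-T22, a ligand of a gamma-delta T cell receptor, did not pass the filter and had 3, 2, 2 and 3 reads in bigenic and 13, 10, 17 and 8 reads in control mice, counts that are uncertain because 39.97% of its stretches of 75 bases occur in another gene. H2-Q6, H2-Q7 and H2-T9 were listed at 0 in all 8 libraries. Since 21.1% of the stretches of 75 bases in H2-Q6 and 16.95% of those in H2-Q7 occur in another gene, and the handling of reads that match several genes is not given in the sources used here, these zeros do not show absence.

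Genes of peptide transport and loading were lower in 10 of 20 cases (background 22.9%) and higher in 1 (Tapbp), with a median log2 fold change of -0.32. Calr, the lectin chaperone calreticulin of the loading complex, averaged 309 ± 29.2 CPM in the bigenic group and 508 ± 55.2 CPM in the control group (SD, n = 4). That difference passed, with a fall of 0.72 ± 0.09 on the log2 scale (SE; edgeR adjusted p = 0.00016). Pdia3, the oxidoreductase bound to tapasin, fell by 0.36 ± 0.11 (SE; adjusted p = 0.023), a call lost without control mice 2 and 3 (0.17), without bigenic mouse 1 (0.068) or without control mouse 3 (0.072). Canx, the membrane-bound chaperone calnexin, was at 682 ± 46.5 and 731 ± 39.4 CPM and did not pass (SD, n = 4; edgeR adjusted p = 0.29). The glucosyltransferase Uggt1, which checks folding of glycoproteins, fell by 0.48, the chaperone Hsp90b1 by 0.45, the glucosidase subunit Prkcsh by 0.40, the signal peptidase subunit Spcs3 by 0.38 and the lysosomal peptide transporter Abcb9 by 0.52 on the log2 scale. Without control mice 2 and 3 the Hsp90b1 call was lost (adjusted p = 0.052). Most of these also serve proteins other than class I.

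Of 19 factors that act on class I promoters 9 were lower, the member Nlrc5 among them, and 4 higher. The background shares are 22.9% and 21.4%, so the higher count is near the background. The interferon regulatory factors fell: Irf7 by 1.37 ± 0.18 (SE), Irf3 by 1.11 ± 0.16, Irf1 by 0.98 ± 0.19 and Irf9 by 0.66 ± 0.11, while Irf2 and Irf8 did not pass. Irf1, which binds interferon response elements of class I promoters, was at 2.82, 1.57, 2.48 and 2.98 CPM in bigenic mice 1 to 4 and at 5.05, 5.23, 4.38 and 4.71 CPM in control mice 1 to 4, without overlap (adjusted p = 0.0019). On log2(FPKM + 1) the log2 fold change of Irf1 was -0.54 and the log2 fold change of Irf7 was -0.82, and both still passed.

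The module shown in the promoter stretches is bound by complexes whose subunits diverged. Of the NF-Y trimer that binds ATTGG, Nfya fell by 0.81 ± 0.14 (SE; adjusted p = 0.00089) and Nfyc rose by 0.58 ± 0.09 on the log2 scale (SE; adjusted p = 0.00033), whereas Nfyb did not pass (0.26 ± 0.11, SE; adjusted p = 0.069). Among the RFX complex, Rfx5 was at 34.1 ± 1.37 and 32.1 ± 1.51 CPM (SD, n = 4; edgeR adjusted p = 0.38). Its partner Rfxap rose by 0.61 ± 0.11 (SE; adjusted p = 0.0010), and Rfxank fell by 0.42 ± 0.16 (SE; adjusted p = 0.047), a call lost without control mice 2 and 3 (adjusted p = 0.17) and without 6 of the 8 libraries left out singly. Creb1 fell by 0.33 ± 0.08 (SE; adjusted p = 0.0052; 0.097 without control mice 2 and 3). Atf1, of the same family of factors, rose by 0.37 ± 0.13 (SE; adjusted p = 0.036), a call lost in 12 of 16 alternatives, among them without control mice 2 and 3 (adjusted p = 0.15). Nfyb, Rfxap, Rfxank, Creb1 and Atf1 were named after their values were seen, to complete the complexes.

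Upstream, 3 of 11 interferon receptor and kinase genes were lower and 1 was higher, counts near or below the background shares of 22.9% and 21.4%. None of the receptor chains Ifngr1, Ifngr2, Ifnar1 and Ifnar2 passed (adjusted p = 0.16, 0.14, 0.95 and 0.40). Usp18, an interferon-induced brake on the type I receptor, fell by 1.56 ± 0.24 (SE; adjusted p = 0.00042) and the kinase Tyk2 by 0.60 ± 0.16 (SE; adjusted p = 0.010; 0.062 without control mice 2 and 3). The cytokine signalling inhibitors Socs1 and Socs3 had log2 fold changes of -1.47 ± 0.53 and 0.93 ± 0.25 (SE; adjusted p = 0.043 and 0.011). Both of these calls were lost without control mice 2 and 3 (adjusted p = 0.12 each), and that of Socs1 also when any single library other than bigenic mouse 1 was left out (adjusted p = 0.055 to 0.10). Bigenic mouse 1 lay near the controls in Socs1, and without it the log2 fold change of Socs1 was -2.58. On log2(FPKM + 1) the log2 fold change of Usp18 was -0.67, the log2 fold change of Socs1 was -0.39 and the log2 fold change of Socs3 was 0.41.

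Class II genes, which present peptides from outside the cell, were lower in 4 of 7 cases (background 22.9%), and the other 3 did not pass, with a median log2 fold change of -0.75. H2-Ab1 averaged 1.04 ± 0.209 CPM in bigenic mice against 1.85 ± 0.256 CPM in controls (SD, n = 4; edgeR adjusted p = 0.0088), H2-Aa fell by 0.75, H2-Eb1 by 0.84 and the invariant chain Cd74 by 0.75 on the log2 scale. Without control mice 2 and 3 all 4 calls were lost, those of H2-Ab1, H2-Aa, H2-Eb1 and Cd74 (adjusted p = 0.12, 0.10, 0.12 and 0.15). On log2(FPKM + 1) the log2 fold change of H2-Ab1 was -0.50, the log2 fold change of H2-Aa was -0.47 and the log2 fold change of H2-Eb1 was -0.33. Genes of cells that read class I were near the detection limit: Cd8a had 0 to 3 reads per library and Cd3e 0 to 4. Of 14 receptor and ligand genes 2 passed the filter, and Klra2, of the Ly49 receptor family, was higher at 1.14 ± 0.288 against 0.654 ± 0.184 CPM (SD, n = 4; edgeR adjusted p = 0.037); that call was lost without control mice 2 and 3 (adjusted p = 0.055) and in 9 other alternatives (0.051 to 0.11), and on log2(FPKM + 1) the log2 fold change of Klra2 was 0.22.

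**Figure D4:**
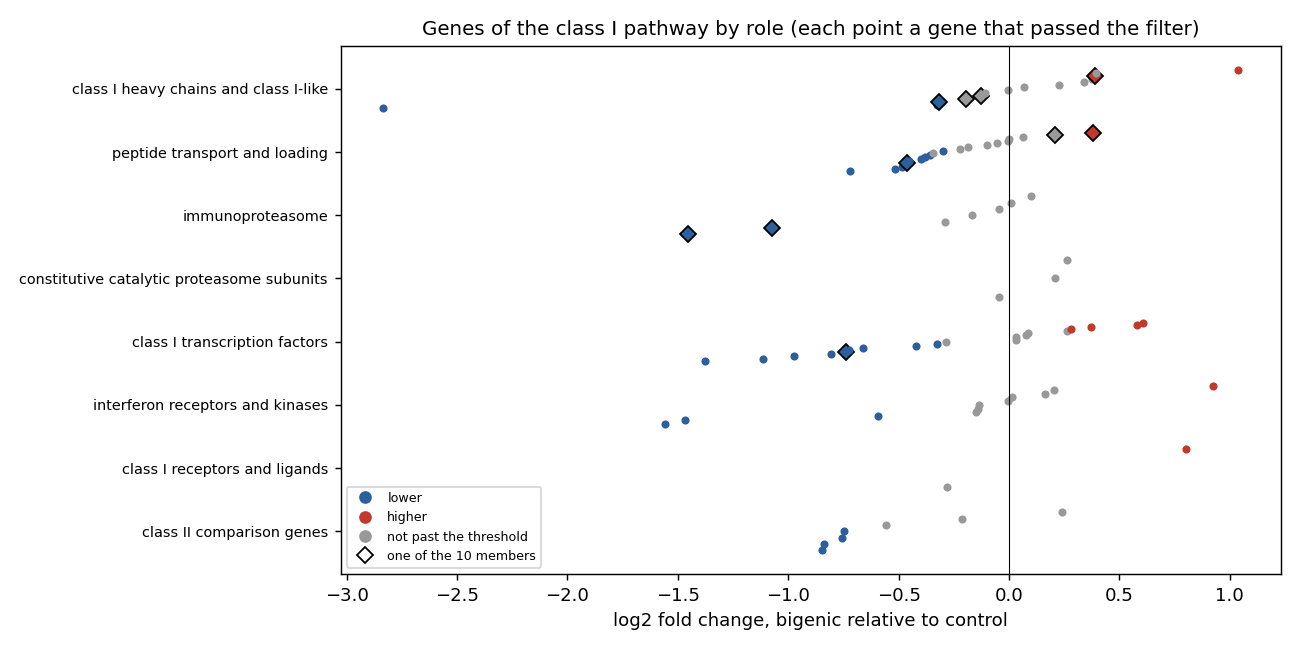
Log2 fold change (bigenic relative to control) of every gene that passed the filter in 8 lists of the class I pathway and its surroundings; each point is a gene, diamonds are the 10 members, blue and red passed an adjusted p under 0.05. The class I heavy chains and the transcription factors spread to both sides of 0, with H2-T24 at -2.83 as the lowest point.

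Marker sums of several cell types also differed between the groups, while the class I genes differed in both directions. The 18 microglial markers summed to 174 to 214 CPM in bigenic and 242 to 291 CPM in control libraries without overlap, and 10 of them were lower (background 22.9%) while the other 8 did not pass. The purinergic receptor P2ry13 fell by 1.95, the receptor Gpr34 by 1.60 and P2ry12 by 1.09 on the log2 scale. On log2(FPKM + 1) the log2 fold change of P2ry13 was -1.09. Endothelial markers (18 genes) summed to 354 to 375 against 402 to 434 CPM. Of them 6 were lower (background 22.9%), 2 higher (background 21.4%) and 10 not past the threshold. Border macrophage and leukocyte markers (16 genes) summed to 24.1 to 43.0 against 38.9 to 45.9 CPM. Among the 11 tested, 6 were lower and 1 higher, against the same background shares. The sum of astrocyte and Bergmann glia markers (15 genes) went the other way, at 12792 to 14504 CPM in bigenic and 10400 to 10880 CPM in control libraries. Of these genes 8 were higher (background 21.4%), 2 were lower (background 22.9%) and 5 did not pass. None of the non-erythroid markers was at 0 in all libraries. The haemoglobin genes Hba-a1, Hba-a2, Hbb-bs and Hbb-bt were listed at 0 in each. These zeros do not show absence, since the handling of reads that match several genes is not given. The erythroid enzyme Alas2 was at 1.39 ± 1.78 CPM in bigenic mice against 6.75 ± 0.578 CPM in controls (SD, n = 4), without overlap. Its log2 fold change of -2.27 passed, a call lost without control mice 2 and 3 and in some other alternatives. The part of these cell types in the class I values was not tested. Control mouse 4, whose choroid plexus sum was below that of every bigenic mouse, had H2-K1 at 23.8, Psmb8 at 2.91, Psmb9 at 1.02 and Nlrc5 at 1.02 CPM. Its values of Tap1 (3.49 CPM), H2-D1 (57.1 CPM) and Tapbp (19.0 CPM) were each the lowest of the controls. This is a single library, and the part of choroid plexus in these values was not tested.

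**Figure D5:**
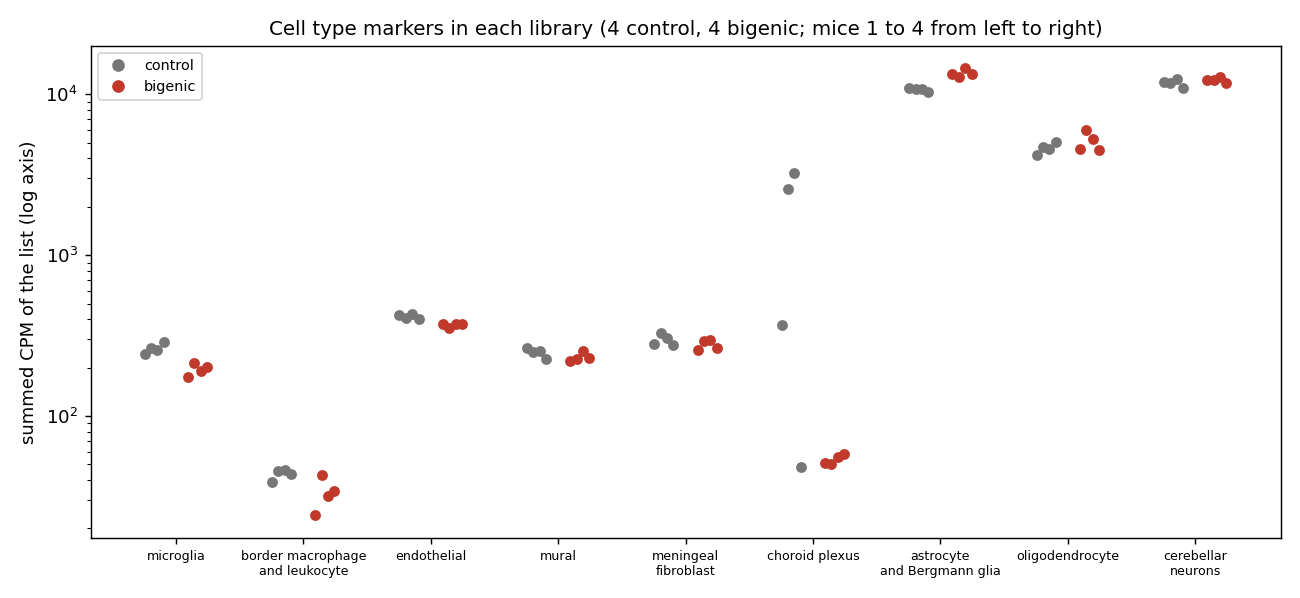
Summed CPM (log axis) of 9 cell type marker lists in each library (grey control, red bigenic; mice 1 to 4 from left to right). The microglial and endothelial sums are lower in all bigenic libraries, the astrocyte sum is higher, and choroid plexus markers stand out in control mice 1, 2 and 3.

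No member lay nearest to the members' mean profile over the 8 libraries. The distance from the mean standardised log2 CPM profile of the 10 members ranged from 1.70 for H2-K1 to 3.30 for H2-D1. The 5 other genes nearest to that mean were Aprt, Gch1, Ero1lb, Rundc1 and Ccnj, at distances of 1.55 to 1.63. None of these 5 passed the threshold between groups (adjusted p = 0.0997 to 0.58).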

How the data were processed

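The authors deposited read counts per gene symbol, whole numbers that were not normalised, and FPKM, which equal those counts divided by a fixed gene length and the column total (checked on the values). Reads were aligned with STAR and counted with HTSeq on mm10, per the submitters' processing notes; versions and strand setting are not given in the sources used here. The labels disagree on the kits: the series design names mirVana and Nugen Ovation, the sample protocols a Qiagen column and stranded TruSeq with ribosomal RNA removal. The labels give each library its own mouse.

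Counts were filtered with filterByExpr, scaled by TMM and tested with edgeR 4.0.16 in R 4.3.3 (quasi-likelihood F test, robust), bigenic against control, n = 4 each; SE is the size of the log2 fold change over the root of F. The fit was tested on simulated data. Alternatives were DESeq2 1.42.0, other scalings, no filter, limma 3.58.1 on log2(FPKM + 1) and log2(FPKM + 0.1) for genes with mean FPKM above 0.1, a replicate block, and leaving out libraries. Positions are from GENCODE M21 (GRCm38, the build called mm10), counted from 1. The members and lists were chosen with earlier results of these data known. Named genes are the 10 members, up to 6 called genes with the smallest p per list, fixed partners (Psmb5, Psmb6, Psmb7, Psmb10, Calr, Canx, Pdia3, Irf1, Rfx5), up to 3 genes per marker list and the 5 genes nearest in profile; exceptions are stated, and 1 partner is not reported here.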

Additional observations from a re-analysis of the deposited data

Results flagged for a closer look

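A single library stood far from the other 3 of its group in 4 of 116 groups of 4 values examined, where chance gives about 1 in 20. B2m was at 126 CPM in bigenic mouse 3, against 89.5 to 93.7 CPM in the other bigenic mice. H2-T24 was at 0.541 CPM in bigenic mouse 2, against 0.18 to 0.2 CPM in the other bigenic mice, and at 2.52 CPM in control mouse 4, against 1.82 to 1.93 CPM in the other controls. Nfya was at 11.96 CPM in bigenic mouse 2, against 7.73 to 8.17 CPM in the other bigenic mice.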

How the results depend on the processing

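Of 160 member values under alternatives, 137 kept their direction and side of the threshold, 22 kept direction but no longer passed, 1 newly passed and 0 changed sign. Without control mice 2 and 3 the genes called fell from 6734 to 3394. The lower members fell from 5 to 2 and the higher from 2 to 1, with fewer samples tested. Over all genes tested the shares fell from 22.9% to 11.4% lower and from 21.4% to 10.4% higher. Among calls lost there, H2-K1 (-0.35), Fcgrt (-0.35), Rfxank (-0.43), Tyk2 (-0.62) and Socs1 (-1.58) were no smaller in log2 size than with all libraries. Tap1, at 0.48 or more in size, was also no smaller, and Tapbp was at 0.38 in both fits. Smaller in size were Nlrc5 (-0.68), Pdia3 (-0.29), Hsp90b1 (-0.38), Creb1 (-0.26), Socs3 (0.62), H2-Ab1 (-0.68), H2-Aa (-0.68), H2-Eb1 (-0.70) and Cd74 (-0.53). Leaving out 1 library gave 5281 to 7411 genes called, 2 to 4 lower members and 2 higher ones. Over all genes tested, 17.9% to 24.9% were lower and 16.6% to 23.4% higher in those fits. Same-numbered mice share only a number: their deviations correlated at 0.024 to 0.33, and 3 of the 4 bigenic mice correlated best with the control of their own number. With the mouse number as a replicate block 7443 genes, 5 lower and 2 higher members were called, and the ratios had an adjusted p of 0.125, the smallest 4 pairs allow. Leaving out 1 library, the log2 ratio differences were -1.10 to -0.98 for Psmb8 to Psmb5, -1.88 to -1.46 for Psmb9 to Psmb6, -0.77 to -0.62 for Tap1 to Tap2, -0.44 to -0.26 for H2-T23 to the classical heavy chains, 0.37 to 0.52 for H2-K1 plus H2-D1 to B2m and -0.36 to -0.17 for Psmb10 to Psmb7; without bigenic mouse 2, 4 of the 6 passed (adjusted p = 0.0429). The log2 fold change of Psmb10, at 0.0081, changed sign to -0.052 with upper-quartile factors, -0.078 with library size alone, -0.013 with no filter, -0.080 on log2(FPKM + 1), -0.085 on log2(FPKM + 0.1), -0.00030 with the block and -0.10 without control mice 2 and 3, and ranged from -0.11 to 0.093 with 1 library left out (below 0 without bigenic mouse 3 or 4 or control mouse 3). The log2 fold change of Rfx5 changed sign to -0.00043 with library size alone. The cause was not tested. Psmb9, Nlrc5 and H2-T24 rest on few reads, which limits the precision of their values.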
